A study of Mus musculus with 2 samples.

Results

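The genes described here encode the proteasome and its regulators, found on an Agilent mouse array as the probes whose gene name began with Psma, Psmb, Psmc, Psmd, Psme or Psmg followed by a digit. That rule took 67 of 41174 probes, of which 63 passed the filter on dim signals, and they stood for 42 of the 22226 genes tested. All 42 genes were tested, each through at least 1 probe. The 4 probes that did not pass were 1 of Psma2, 1 of Psmd13 and 2 of Psme4. The rule also took Psmc3ip, a meiotic recombination factor named for its binding to Psmc3 and no proteasome subunit, and it missed Psmb11, Psmd6, Psmg1, Psmg2 and Psmg3, which the array design listed under other names.

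The series compared 2 populations of CD8+ T cells sorted from the spleen of C57BL/6 mice, cells with CD122 on their surface (CD8+CD122+) and cells without it (CD8+CD122-). CD122 is the interleukin-2 receptor beta chain, encoded by Il2rb, and the series title calls the CD8+CD122+ cells regulatory T cells. Both populations were hybridised together on 2 two-colour arrays, with CD8+CD122+ in Cy5 on array 1 and in Cy3 on array 2, so the dyes were exchanged. The RNA was amplified before labelling, and neither population is labelled with a treatment, a genetic change or an age. The labels call array 2 a second trial, and the sources used here do not say whether it used other mice, or how many mice were pooled. Every ratio below is the log2 ratio of CD8+CD122+ over CD8+CD122- after normalisation, written array 1 first, and the error of a mean is the SD of the 2 arrays.

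The proteasome is the protease of the cytosol and nucleus that degrades ubiquitin-tagged proteins. Its core particle is a barrel of outer rings of alpha subunits, which gate the entry, and inner rings of beta subunits, among which Psmb5, Psmb6 and Psmb7 carry the active sites. In lymphocytes and in cells exposed to interferon-gamma, the inducible subunits Psmb8, Psmb9 and Psmb10 take the places of Psmb5, Psmb6 and Psmb7 in newly built cores, which are then called immunoproteasomes. Psme1 and Psme2 form the interferon-inducible cap PA28, and these inducible parts are known for shaping the peptides that MHC class I molecules present.

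The sort marker Il2rb was read at signals of 9033 (CD8+CD122+) and 1012 (CD8+CD122-) on array 1, and of 4432 and 1405 on array 2, a log2 ratio of 2.60 and 2.34 (mean 2.47 ± 0.18). The coreceptor genes Cd8a (ratios -0.31 and -0.91) and Cd8b1 (ratios -0.48 and -0.86) were lower in CD8+CD122+ cells on both arrays, as were Cd3d and Cd3g, and thus 4 of the 5 CD8 T cell markers. The 5 CD8 T cell markers summed to between 26427 and 73853 per population and array. Most of each sum was Cd8b1, which read between 18355 and 55444. Signals of different probes are not comparable, so these sums and those of other cells below do not measure purity. For example, Cd3e read between 762 and 1131, and the erythroid marker Alas2 between 808 and 2178. The 4 B cell markers summed to between 722 and 1040, 3 tested NK cell markers to between 705 and 1004, 4 tested macrophage and monocyte markers to between 709 and 1256, the 4 dendritic cell markers to between 563 and 908, 2 tested erythroid markers to between 949 and 3341, the platelet marker Ppbp lay between 149 and 216, and Cd4 lay between 103 and 143. Markers that include Ncr1, Itgam, Hbb-b1 and Pf4 did not pass the filter on dim signals. Above 0 on both arrays lay 2 of 4 tested B, 2 of 3 NK and 3 of 4 macrophage and monocyte markers. So did 4 of 4 dendritic, 2 of 2 erythroid and 1 of 1 platelet markers. Of all genes tested, 28.9% lay above 0 on both arrays and 24.0% below 0 on both. The highest were Zbtb46 among dendritic markers (ratios 1.44 and 1.29) and Lyz2 among macrophage and monocyte markers (ratios 0.77 and 0.33). The other markers above 0 had means of at most 0.13 (Alas2) in the probes that stood for them. A further probe of the dendritic marker Itgax had a mean of 0.84. The B cell marker Cd79b lay below 0 on both arrays (ratios -0.20 and -0.76). The part of other cell types in the results below was not tested. In bulk RNA of sorted cells, fewer cells of a type and less RNA per cell cannot be told apart. Spots were well above background in 76.4% (CD8+CD122+) and 69.5% (CD8+CD122-) of cases on array 1, and in 80.2% and 83.4% on array 2. Across all genes tested the ratios of the 2 arrays were related with Pearson's r = 0.40 and Spearman's rho = 0.099, a description over genes measured on the same 2 arrays.

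In the mean of the 2 arrays, the 5 interferon-inducible genes Psmb8, Psmb9, Psmb10, Psme1 and Psme2 had lower ratios than most other proteasome genes. On array 1 alone this did not hold for Psmb10 (-0.02). All 5 lay below 0 on both arrays after loess normalisation, though 0 of 5 did under median centring, with a median after loess of -0.15 on array 1 and -0.62 on array 2, and the median of their means was -0.50. The other 37 genes had medians of -0.02 and -0.07, and 11 of them lay below 0 on both arrays, 4 above 0 on both, and 22 on opposite sides. The median of the 5 minus that of the 37 was -0.13 on array 1 and -0.55 on array 2. With 2 arrays no exact test of this difference can give a small p-value, so none is given. Among all genes tested 24.0% lay below 0 on both arrays, 28.9% above 0 on both and 47.1% on opposite sides, with medians of 0.01 and 0.00. In limma, with Benjamini-Hochberg adjustment over all genes, 0 of the 42 proteasome genes passed an adjusted p of 0.05, and 0% of all genes did. Unadjusted p-values under 0.05 were held by 3 members, Psme2b, Psme2 and Psmd7, and by 6.33% of all genes, 1406 in number.

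The direction on array 1 depends on how the dyes were balanced. Before correction the Cy5 signal was the brighter one for each of the 5 genes on both arrays, that is CD8+CD122+ on array 1 and CD8+CD122- on array 2. With each array's ratios only centred on their median instead of loess, the 5 had a median of 0.32 on array 1 and -1.09 on array 2, and the other 37 had 0.28 and -0.44. Of all 42 members 1 then lay below 0 on both arrays and 3 above 0, beside 13.02% of all genes below 0, so the counts by sign given here hold after loess. That centring also moved the median of all genes to 0.10 on array 1 and -0.12 on array 2. A dye effect shared by both arrays cancels in their mean, and the median of the 5 means was -0.45 under median centring. The difference between the 5 and the 37 under that centring was 0.04 on array 1 and -0.65 on array 2, so array 2 alone carried it there.

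**Figure D1:**
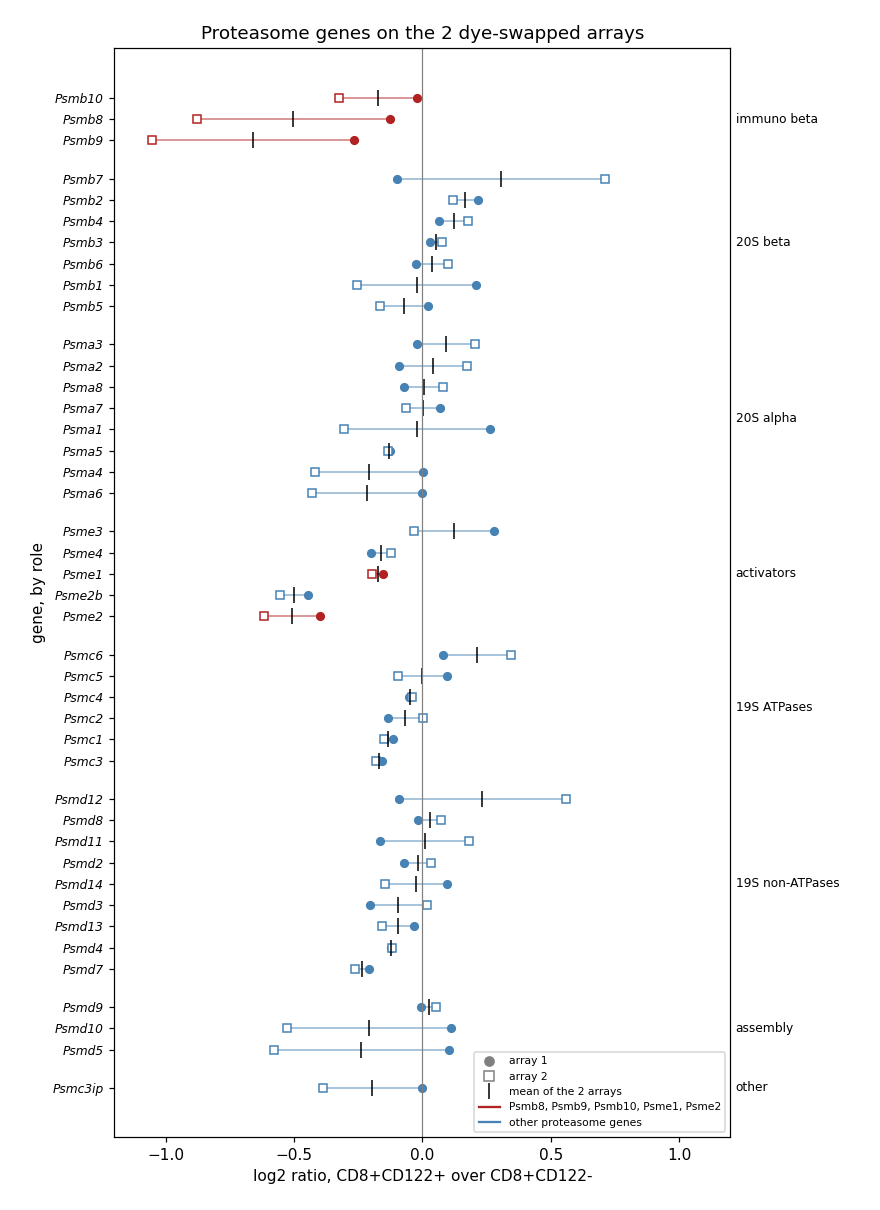
Log2 ratio of CD8+CD122+ over CD8+CD122- (horizontal axis) for each of the 42 proteasome genes (vertical axis), grouped by role, with filled circles for array 1, open squares for array 2, vertical bars for the mean of both, and Psmb8, Psmb9, Psmb10, Psme1 and Psme2 in red. The red points all lie below 0 on both arrays after loess, from -0.02 (Psmb10, array 1) to -1.05 (Psmb9, array 2), which under median centring holds for array 2 only, while most other genes have their 2 arrays on either side of 0 or close to it.

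The sequences before the starts of Psmb9 and Psmb8 are shown first because these are the 2 immunoproteasome subunits with the lowest mean ratios, and because both genes lie in the MHC region beside the peptide transporter gene Tap1. Psmb9 and Tap1 are transcribed away from each other from starts 225 bases apart. The 225 bases between them read, 5′ to 3′ in the direction of Psmb9 on the minus strand (chr17:34187331-34187555), as follows, with no capitals because none of the motifs searched was found in it.
Psmb9: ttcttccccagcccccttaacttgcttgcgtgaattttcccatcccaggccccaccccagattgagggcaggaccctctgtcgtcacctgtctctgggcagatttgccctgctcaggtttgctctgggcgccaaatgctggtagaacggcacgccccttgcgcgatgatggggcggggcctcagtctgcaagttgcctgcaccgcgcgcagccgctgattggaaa
The 250 bases before the start of Psmb8 on the plus strand (chr17:34197945-34198194) follow, with the match to a GAS motif in capitals.
Psmb8: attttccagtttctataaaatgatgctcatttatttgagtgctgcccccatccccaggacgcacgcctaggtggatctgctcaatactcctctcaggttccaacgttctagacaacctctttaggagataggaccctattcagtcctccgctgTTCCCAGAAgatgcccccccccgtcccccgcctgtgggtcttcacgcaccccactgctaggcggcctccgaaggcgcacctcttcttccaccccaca
Both are RefSeq sequences of the build GRCm38.p6, whose promoter table held 35 of the 42 genes in 38 windows of 250 upstream bases, 6 of them of the 5 inducible genes. GAS (TTCNNNGAA), the interferon-gamma-activated site, was searched on both strands and was held by 7.02% of all 32851 windows. Among the members' windows it was found in that of Psmb8 only, at bases 97 to 89 before the start, and thus in 1 of the 6 inducible windows. A pair of interferon response half-sites (GAAA, any 2 bases, GAAA) was held by 2.98% of all windows and by 3 of the members' windows, those of Psmd4, Psmd9 and Psmb3. The core of the antioxidant response element (TGACNNNGC) was held by 10.2% of all windows and by 5 of the members', those of Psmb5, Psmb6, Psmc6, Psmd9 and Psmd12. The NF-kappa-B core (GGGA, any 2 bases, TTCC) was held by 1.21% of all windows and by 1 of the members', that of Psme4. None of these last 3 motifs was found in an inducible window, and a match describes letters, not binding.

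Psmb9 encodes the immunoproteasome subunit that replaces Psmb6. Its signal was 1889 in CD8+CD122+ and 1591 in CD8+CD122- cells on array 1, and 783 and 2455 on array 2. After normalisation its log2 ratio was -0.27 and -1.05, the lowest mean of all 42 genes at -0.66 ± 0.56, which is 1.58-fold lower in CD8+CD122+ cells. Both arrays lay below 0 but differed from each other by more than the ratio of array 1, and the adjusted p in limma was 0.855.

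Psmb8, the counterpart of Psmb5, gave signals of 4963 and 3521 on array 1 and of 1704 and 4924 on array 2. Its log2 ratio was -0.13 and -0.88 (mean -0.50 ± 0.53, 1.42-fold lower, adjusted p = 0.892 in limma). A further Psmb8 probe read -0.16 and -0.78, so both probes were near 0 on array 1 and well below it on array 2.

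Psmb10, the counterpart of Psmb7, gave signals of 7947 and 5048 on array 1 and of 5728 and 11626 on array 2. Its log2 ratio was -0.02 and -0.33 (mean -0.17 ± 0.22, adjusted p = 0.907 in limma), and its array 1 value was the closest to 0 of the 5.

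Psme2 encodes the beta subunit of the PA28 cap, which opens the gate of the core. Its signal was 8177 in CD8+CD122+ and 6668 in CD8+CD122- cells on array 1, and 4454 and 11003 on array 2. The log2 ratio was -0.40 and -0.62 (mean -0.51 ± 0.15, 1.42-fold lower), with an unadjusted p of 0.0118 and an adjusted p of 0.623 in limma. Its ratios on the 2 arrays were closer to each other than those of Psmb8, Psmb9 or Psmb10.

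Psme2b, a near-identical copy of Psme2, was read by a probe of its own with signals of 12328 and 10055 on array 1 and of 10567 and 25469 on array 2. Its log2 ratio was -0.45 and -0.55 (mean -0.50 ± 0.08), with the smallest p of the 42 genes in limma, 0.00574 unadjusted and 0.575 adjusted. The array design named the Psme2 probe Psme2 in one file and Psme2b in the other, so RNA of the 2 genes cannot be told apart on these probes, and they are not independent readings. Psme2 and Psme2b were the only members at least 0.3 lower on both arrays, 2 of 42, where 1.66% of all genes were. At least 0.3 higher on both arrays were 0 members and 1.72% of all genes.

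Psme1, the alpha subunit of PA28, gave signals of 3237 and 2423 on array 1 and of 2500 and 4543 on array 2. Its log2 ratio was -0.15 and -0.19 (mean -0.17 ± 0.03, 1.13-fold lower, adjusted p = 0.824 in limma), small but nearly equal on both arrays. Of the other activators, Psme4, the PA200 cap, read -0.20 and -0.12 (mean -0.16 ± 0.06) in its brightest probe and 0.03 in the mean of its other kept probe, which was not well above background in CD8+CD122- cells on array 1. Psme3, which forms the PA28-gamma cap of the nucleus, read 0.28 and -0.03 and was the 1 activator with its arrays on opposite sides of 0.

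**Figure D2:**
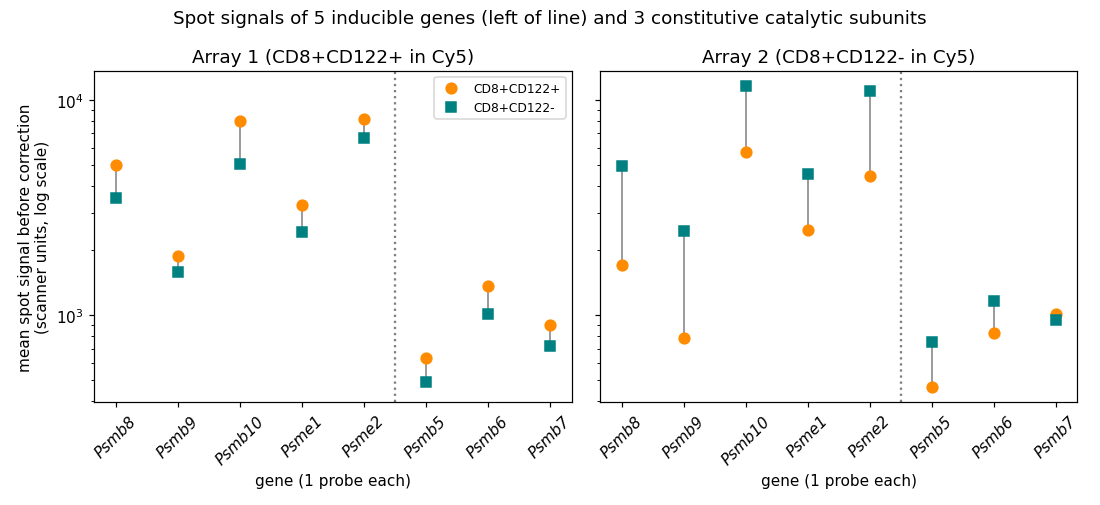
Mean spot signal before background correction (vertical axis, scanner units, log scale) of the 5 inducible genes, left of the dotted line, and the constitutive catalytic subunits Psmb5, Psmb6 and Psmb7, right of it, in CD8+CD122+ (circles) and CD8+CD122- (squares) on array 1 and array 2; signals of different probes are not comparable. The Cy5 population is the brighter for every gene drawn except Psmb7 on array 2 (1010 in CD8+CD122+ and 949 in CD8+CD122-), and the gap is wider on array 2 than on array 1 as a ratio for all 5 inducible genes, Psmb5 and Psmb6, for example in Psmb9 (783 and 2455, against 1889 and 1591).

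The 3 constitutive catalytic subunits stood closer to 0 or above it. Psmb5, the chymotrypsin-like subunit, gave signals of 636 and 488 on array 1 and of 464 and 748 on array 2, with log2 ratios of 0.02 and -0.16 (mean -0.07 ± 0.13). Psmb6, the caspase-like subunit, gave signals of 1368 and 1009 on array 1 and of 825 and 1166 on array 2, with log2 ratios of -0.03 and 0.10 (mean 0.04 ± 0.09). Psmb7, the trypsin-like subunit, gave signals of 897 and 722 on array 1 and of 1010 and 949 on array 2, with log2 ratios of -0.10 and 0.71 (mean 0.31 ± 0.57). The arrays had opposite signs for each of these 3 genes, and Psmb7 had the highest mean of all 42 members through array 2 alone.

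Each inducible subunit was then set against the constitutive subunit it replaces, as the difference between their log2 ratios. Psmb8 minus Psmb5 was -0.15 on array 1 and -0.71 on array 2 (mean -0.43 ± 0.40). Psmb9 minus Psmb6 was -0.24 and -1.15 (mean -0.70 ± 0.65). Psmb10 minus Psmb7 was 0.08 and -1.04 (mean -0.48 ± 0.79). After loess the inducible subunit had the lower ratio in 3 of 3 pairs on array 2 and in Psmb8 and Psmb9 on array 1. For the pair of Psmb10 and Psmb7 on array 2, most of the difference came from Psmb7 (0.71, against -0.33 for Psmb10). Pairs are not given under median centring, where the 5 minus the 37 was 0.04 on array 1. In each pair the SD between arrays was near the size of the mean or larger. No test was made of these pairs.

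The rest of the beta ring did not share the lower ratios of the inducible subunits. Of the 7 constitutive beta subunits 3 lay above 0 on both arrays, 0 below 0 on both and 4 on opposite sides, with a median mean of 0.05. Psmb2, a structural subunit, gave signals of 255 and 199 on array 1 and of 311 and 389 on array 2, with log2 ratios of 0.22 and 0.12 (mean 0.17 ± 0.07). Psmb4, with which ring assembly ends, read 0.07 and 0.18 (mean 0.12 ± 0.08), and Psmb3 read 0.03 and 0.07 (mean 0.05 ± 0.03). These were small ratios, with adjusted p-values in limma from 0.867 (Psmb2) to 0.943 (Psmb3). A further probe of Psmb3 read 0.20 and -0.11.

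Of the 8 alpha ring subunits 0 lay above 0 on both arrays, 2 below 0 on both (Psma5 and Psma6) and 6 on opposite sides, with a median mean of -0.01. Psma6 had the largest mean in size, from signals of 955 and 715 on array 1 and of 674 and 1356 on array 2, with log2 ratios of -0.00 and -0.43 (mean -0.22 ± 0.30). Psma5 read -0.12 and -0.13 (mean -0.13 ± 0.01).

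The regulatory particle that binds ubiquitin chains and unfolds substrates has a ring of ATPases (Psmc genes) and a set of other subunits (Psmd genes). Of the 6 ATPases 1 lay above 0 on both arrays (Psmc6), 3 below 0 on both (Psmc1, Psmc3 and Psmc4) and 2 on opposite sides, with a median mean of -0.06. Psmc6 gave signals of 1362 and 944 on array 1 and of 1757 and 2169 on array 2, with log2 ratios of 0.08 and 0.35 (mean 0.21 ± 0.19). Psmc3 gave signals of 301 and 281 on array 1 and of 317 and 492 on array 2, with log2 ratios of -0.16 and -0.18 (mean -0.17 ± 0.02, adjusted p = 0.828 in limma).

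Of the 9 other subunits of the regulatory particle 0 lay above 0 on both arrays, 3 below 0 on both (Psmd4, Psmd7 and Psmd13) and 6 on opposite sides, with a median mean of -0.02. Psmd7, the partner of the deubiquitinase Psmd14, gave signals of 353 and 336 on array 1 and of 363 and 604 on array 2, with log2 ratios of -0.21 and -0.26 (mean -0.24 ± 0.04), an unadjusted p of 0.0318 and an adjusted p of 0.734 in limma. The 2 further Psmd7 probes had means of -0.15 and -0.14. The first read -0.19 and -0.10, but the second read -0.47 and 0.19, with opposite signs on the arrays. Psmd4, a ubiquitin receptor, read -0.12 on both arrays in its brightest probe, while its other probe had a mean of 0.10.

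The 3 assembly chaperones under their current names, Psmd5, Psmd9 and Psmd10, had their arrays on opposite sides of 0. Psmd5, which guides assembly of the ATPase ring, gave signals of 321 and 255 on array 1 and of 235 and 451 on array 2, with log2 ratios of 0.10 and -0.58 (mean -0.24 ± 0.48). Psmd10 read 0.11 and -0.53, while Psmd9 stayed near 0 on both arrays (-0.00 and 0.05). The chaperones that the array design listed under other names read like Psmd5 and Psmd10 on array 2. Their log2 ratios were 0.03 and -0.49 for Psmg1, 0.15 and -0.62 for Psmg2, and 0.08 and -0.43 for Psmg3. Psmb11, the catalytic subunit of thymic epithelium, read 0.02 and -0.01, and Psmd6 was the 1 of these 5 genes above 0 on both arrays. Psmc3ip, the match that is no subunit, gave signals of 139 and 140 on array 1 and of 158 and 233 on array 2, with log2 ratios of -0.00 and -0.39 (mean -0.20 ± 0.27).

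**Figure D3:**
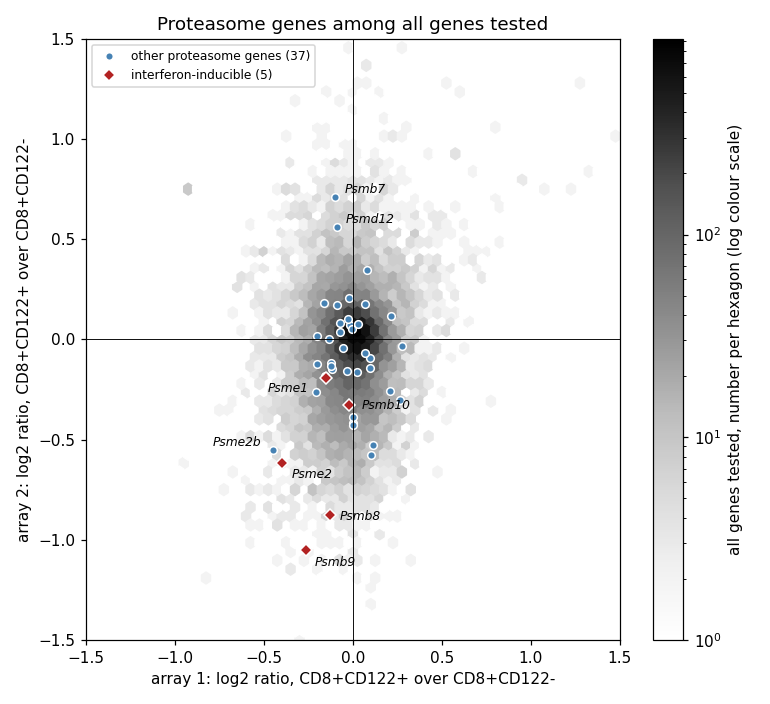
Log2 ratio on array 1 (horizontal axis) against array 2 (vertical axis) for the 22226 genes tested, as hexagons shaded by the number of genes on a log scale, with the 37 other proteasome genes as circles and the 5 inducible genes as diamonds; genes beyond 1.5 on either axis are not drawn. Psme2, Psme2b, Psmb8 and Psmb9 lie in the lower left quadrant at the edge of the cloud, Psmb7 and Psmd12 lie high on array 2 only, and Psme1 and Psmb10 lie inside the cloud.

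Read over all 42 members, 16 lay below 0 on both arrays, 4 above 0 on both and 22 on opposite sides, with medians of -0.03 on array 1 and -0.12 on array 2. The share with opposite signs was near that of all genes (47.1%). After loess, members lay below 0 on both arrays more often than all genes (24.0%), and above 0 on both less often (28.9%). The 16 below 0 include the 5 inducible genes, Psme2b and Psmc3ip, and the count without these is given below. At least 2-fold lower or higher on both arrays were 0 members, against 0.103% and 0.306% of all genes. Proteasome genes are bright, and 31 of the 42 were among the 4445 brightest genes. Of those 31, 12 lay below 0 on both arrays and 2 were at least 0.3 lower on both, where 27.0% and 3.80% of those 4445 genes were. Without the inducible genes, Psme2b and Psmc3ip, the other 35 members held 9 below 0 on both arrays and had medians of -0.02 and -0.04.

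Probes of a gene did not always read alike. Of the 42 genes 16 had several kept probes, and in 7 of them the probes' means had opposite signs, though in 0 genes did they reach 0.3 on both sides. Of the kept probes 4 were not well above background in some population on an array, 2 of Psmd14 and 1 each of Psmd8 and Psme4. Among probes well above background throughout, 14 genes had several, and in 4 of them the means had opposite signs. The widest spread there was 0.36, in Psmd12, a subunit of the lid, which had 3 probes with means from -0.12 to 0.23. Such a spread exceeds the mean of all but the 4 lowest members, Psmb9, Psme2, Psmb8 and Psme2b.

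Genes that work with the proteasome did not show lower ratios as a group. Of 29 such genes, which cover assembly, ubiquitin, shuttle factors and regulators of proteasome transcription, 27 were tested. Above 0 on both arrays lay 12, below 0 on both 2 (Nploc4 among them) and on opposite sides 13, with a median mean of 0.05. Of all genes 28.9% lay above 0 on both arrays, 24.0% below 0 on both and 47.1% on opposite sides. In limma 2 had an unadjusted p under 0.05 (6.33% of all genes did) and 0 passed the adjusted threshold. Zfand2a, a stress-induced factor that binds the regulatory particle, read 0.28 and 2.39 (mean 1.33 ± 1.49), almost all of it on array 2. Nploc4, a cofactor of the segregase Vcp, read -0.29 and -0.52 (mean -0.41 ± 0.16), and its other probe had a mean of -0.05.

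Among 10 tested genes of interferon signalling and peptide supply to MHC class I, 6 lay below 0 on both arrays, 3 above 0 on both and 1 (Irf1) on opposite sides, with a median mean of -0.25. The shares of all genes were 24.0% below, 28.9% above and 47.1% on opposite sides. The peptide transporter genes Tap1 (ratios -0.55 and -0.85) and Tap2 (ratios -0.60 and -0.74), and Ifngr2, the signalling chain of the interferon-gamma receptor (ratios -1.67 and -0.87), were each at least 0.3 lower on both arrays. Ifngr1, the ligand-binding chain of the interferon-gamma receptor, had ratios of 1.28 and 2.15, and Ifng, the cytokine itself, had ratios of 3.69 and 3.26 (mean 3.47 ± 0.31, adjusted p = 0.307 in limma). The 2 receptor chains thus had ratios of opposite sign on both arrays in the probes that stood for them. The other probe of Ifngr2 had a mean of -0.48, against -1.27 in the probe used. In limma 6 of the 10 had an unadjusted p under 0.05, where 6.33% of all genes did, and 0 passed the adjusted threshold.

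**Figure D4:**
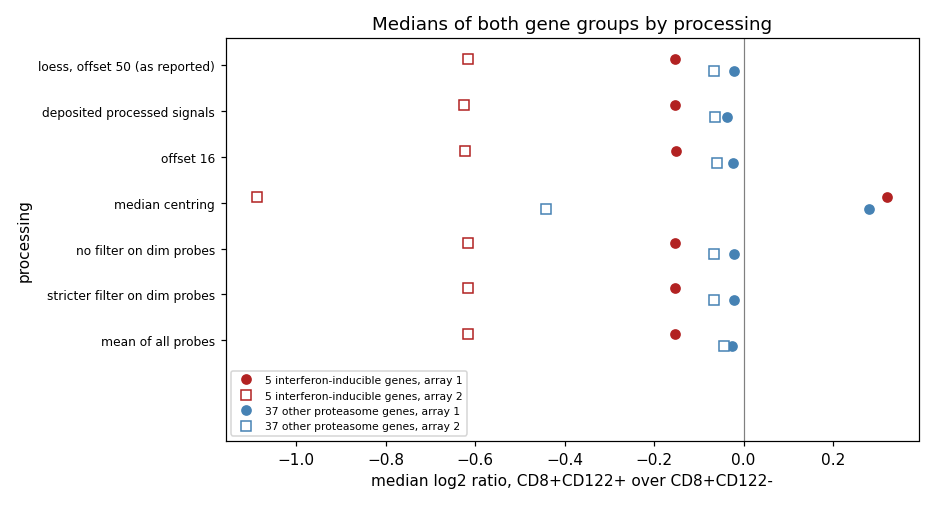
Median log2 ratio (horizontal axis) of the 5 inducible genes (red) and the 37 other proteasome genes (blue) on array 1 (filled circles) and array 2 (open squares) under each way of processing (vertical axis). Both groups keep their places in all settings drawn except median centring. There the inducible median is 0.32 on array 1 and -1.09 on array 2, beside 0.28 and -0.44 for the other genes. Without a filter on dim probes or with a stricter one the medians equal those of the main processing, so these settings are no separate check.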

How the data were processed

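Sorted CD8+CD122+ and CD8+CD122- cells were hybridised on 2 dye-swapped Agilent arrays. The files were made with Agilent Feature Extraction, named in the submitters' processing notes, of which the file headers give version A.7.5.1 (array 1) and version 8.1.1.1 (array 2). Per the file headers they contain linear intensity values of spots and local background, quality flags of 0 or 1, and the log10 of the Cy5 to Cy3 ratio after dye normalisation. The deposited value table holds the same log10 ratios, with reversed sign for array 1, so that by the labels a positive value there means more signal in CD8+CD122- cells on either array, opposite to the direction used here. Each column's median is 0, and 9.55% and 5.64% of values are exactly 0; whether the table was centred, and the genome build of the array design, are not given in the sources used here.

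Of 43790 spots per array, 2256 controls were left out of the analysis (weight 0 in loess), as were spots marked as outliers; saturated spots were kept. Mean signals were corrected against the median local background (normexp, offset 50) and loess-normalised within each array in limma 3.58.1 under R 4.3.3. The offset shrinks ratios of dim genes. Spots of a probe were averaged. Probes were kept where both arrays read 1 or both populations well above background (31286), and the brightest probe stood for its gene. Probes were named through a RefSeq table of GRCm38.p6 by accession (21848), symbol (5774) or synonym (4394), and 9158 kept the file's name. No probe that stood for a member was below background or saturated in either population.

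Genes were fitted with lmFit and eBayes (1 coefficient against 0, 1 residual degree of freedom, two-sided) and adjusted by Benjamini-Hochberg over all genes. The labels do not say that the 2 arrays came from separate animals, so p-values measure only the spread between these arrays, whose small number limits the precision. The steps were tested on simulated data. The members and the gene lists were chosen with earlier results of these data known. Named were the 5 inducible and 3 constitutive catalytic genes, the 6 highest and 6 lowest other members among those of the same sign on both arrays (4 were above 0), the largest mean of each role, matches that are no subunit, the sort markers, and up to 3 genes of each list with the largest mean of the same sign on both arrays. Members named beside a count of 5 or fewer, Psmd12, Psmd14, Psme3 and the genes listed under other names, and Tap1 and Tap2, were picked after their values were seen. Some genes of the lists are not reported here by name. Alternatives were the deposited processed signals, an offset of 16, median centring, no or a stricter filter, the mean of all probes, the deposited table, and each array alone.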

Additional observations from a re-analysis of the deposited data

How the results depend on the processing

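With an offset of 16 limma called 6 genes among all genes tested, against 0 with an offset of 50, and still 0 proteasome genes. With median centring 1 proteasome gene lay below 0 on both arrays in place of 16, and 0 were at least 0.3 lower on both in place of 2, while the means of both arrays changed little. Without array 1 or array 2 in turn, members above 0 numbered 14 to 16 and below 0 26 to 28, those at least 0.3 higher 0 to 3 and at least 0.3 lower 2 to 11, and those 2-fold apart 0 to 1; the upper end of the last 3 is array 2 alone. The members' median then ran from -0.12 to -0.030, that of the 5 inducible genes from -0.62 to -0.15, and their difference from the other members from -0.55 to -0.13, each closest to 0 on array 1 alone. One array has no residual degrees of freedom, so no test was made there. Of 196 mean ratios of named genes under the other alternatives, 184 moved by less than the SD of the 2 arrays. A further 12 moved by more, and 0 changed sign. Many of the 184 are no separate check. Without a filter or with a stricter one each named gene kept exactly its main value. The deposited table repeated the deposited processed signals almost exactly. The signs counted are those of means, and under median centring all 5 inducible genes lay above 0 on array 1. On array 1 alone Psmb5, Psmb6, Psmb7 and Psmd5 had the sign opposite to their mean. Further alternatives were added after seeing the data. Members taken by current symbol had 5 above 0 and 16 below 0 on both arrays, and without Psme2b and Psmc3ip 4 and 14. The ratio within each array already pairs the populations, and a further replicate block would leave no residual degree of freedom.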
